A study of Rattus norvegicus with 20 samples.

Results

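The comparison of old and young healthy iliac arteries consisted of 3 two-colour arrays, of 20 arrays in all, and was selected by its labels (Healthy Old vs Young) and not by any measured value. Each array carried an iliac artery of an old Fisher rat, aged 22 months, against that of a young Fisher rat, aged 3 months by the labels, 4 months by the series' design text and 2 months by the methods, and both arteries were without injury. In the remaining arrays the labels give both arteries a time after balloon injury, 30 min, 3 days or 7 days, whereas captions of the study's gene lists call the young side of some of these comparisons control, so that whether both sides were injured is not settled. Old rats were bought from the National Institute on Aging and young rats from a commercial breeder, so that age and supplier cannot be told apart, and no source says which artery samples came from which animals. The deposited value was a log2 ratio for each of 41010 probes, of which 21394 had a single gene symbol (16421 genes). A log2 ratio of 1 is a 2-fold difference. Ratios give no level, so the presence of arterial marker genes could not be checked, only their difference with age. Since whole artery was used, fewer cells of a type and less RNA per cell cannot be told apart.

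All ratios below are old over young. The old artery carried Cy3 on replicates 1 and 3 and Cy5 on replicate 2, and the ratios of replicates 1 and 3 were therefore multiplied by -1, on the convention that the deposited ratio is Cy5 over Cy3, which no source states. If the ratio ran the other way, every sign in the text would turn. After turning, 2382 probes reached an unadjusted p below 0.05, against 552 with the ratios as deposited. The 3 arrays did not run in parallel throughout. Across all probes Pearson's r was 0.21 between replicates 1 and 2, 0.18 between replicates 2 and 3, and -0.21 between replicates 1 and 3, which had the same dye layout. Between 59.5% and 65.2% of the probes on each array had a ratio exactly equal to that of another probe, and only 10643 probes had a value of their own on all 3 arrays. For these the 3 correlations were 0.39, 0.33 and -0.24.

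The wall of a muscular artery is made of smooth muscle cells, which contract through smooth muscle actin, myosin and its regulatory light chain Myl9. The muscle is lined by endothelium and surrounded by an adventitia of fibroblasts, nerves and fat. Fibroblasts and smooth muscle cells lay down most of the fibrillar collagen and elastin during growth, and these long-lived proteins turn over slowly afterwards. Ageing arteries are known to stiffen and to take up lipid and inflammatory cells more readily.

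No probe differed between old and young arteries at an adjusted p below 0.05 when all 41010 probes were tested with limma (0% called), and 1130 probes were higher and 1252 lower at an unadjusted p below 0.05 in limma. At the study's thresholds, an unadjusted p below 0.05 and a 2-fold difference, 35 probes were higher in old arteries (0.0853%) and 106 were lower (0.258%), and all but 4 of them had the same sign on all 3 arrays. This count was 455, 254 and 396 without replicates 1, 2 and 3. At an unadjusted p below 0.05 alone in limma, 5.86%, 0.992% and 4.07% of all probes were then higher. The shares that were lower were 3.44%, 1.66% and 4.98%. When the test was limited to the 10643 probes with a value of their own, a filter chosen after the data were seen, 35 probes passed an adjusted p below 0.05: 6 were higher in old arteries (0.0564%) and 29 were lower (0.272%). These 35 probes represented 23 named genes, differed by at least 2.03-fold and had the same sign on every array. The filter is not neutral to the size of the ratio, since 50.3% of the probes with a mean ratio over 2-fold had a value of their own, against 25.6% of those with a mean log2 ratio under 0.25. Without replicate 2, the only array with the old artery in Cy5, none of the 35 passed the adjusted test (smallest adjusted p of any probe 0.0557). All 35 kept an unadjusted p below 0.05 in limma, but they had been chosen for a small p on these same arrays. Their sign could not change, as it was the same on every array. A term for the dye left 25 of the 35 past the adjusted test, and without replicate 1 or without replicate 3 all 35 passed it, among 501 and 175 probes in all.

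The highest ratios in old arteries were those of Ubd, Cxcl13, Serpinb7 and Olr1. Ubd encodes FAT10, a ubiquitin-like protein induced by inflammatory cytokines. Its log2 ratio was 2.23, 1.95 and 2.16 on replicates 1, 2 and 3, a mean of 2.11 ± 0.14 (SD, n = 3), or 4.33-fold (adjusted p = 0.00952 in limma among probes with a value of their own). Cxcl13, the chemokine that attracts B cells, had ratios of 1.83, 2.01 and 2.39 (mean 2.08 ± 0.29, adjusted p = 0.0102). Olr1, the receptor for oxidised low-density lipoprotein on endothelial cells and macrophages, gave 1.93, 1.68 and 1.66 (mean 1.76 ± 0.15, adjusted p = 0.0102). For these 3 genes the arrays lay close together and far from 0. The serpin gene Serpinb7 was more variable, at 1.96, 2.30 and 1.26 (mean 1.84 ± 0.53, adjusted p = 0.0173), and its second probe gave a mean of 0.18. The class I histocompatibility gene RT1-CE16 gave 1.13, 0.95 and 1.00 (mean 1.02 ± 0.09, adjusted p = 0.0450). Class I genes of the rat are a family of near-identical copies, so the RT1 gene that a probe reports is uncertain.

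**Figure D1:**
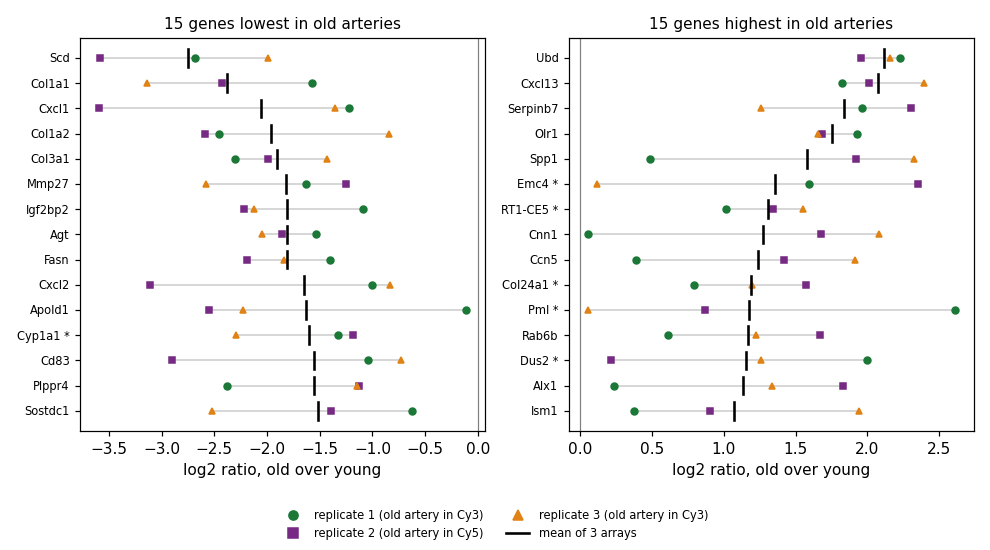
Log2 ratio (x axis, old over young; y axis, gene) of the 15 genes lowest and the 15 genes highest in old arteries among probes with a gene symbol that passed the study's thresholds with 1 sign on all arrays. Coloured points are the 3 arrays, black bars their mean, and an asterisk marks probes that shared a value with another probe on at least 1 array. Ubd, Cxcl13 and Olr1 were tight around their means, whereas Cnn1, Spp1 and Ccn5 were far lower on replicate 1 than on replicates 2 and 3.

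None of the other genes of the 15 highest passed an adjusted test, and Emc4, RT1-CE5, Col24a1, Pml and Dus2 had shared values and so were not in the filtered one. Spp1 encodes osteopontin, a matrix cytokine of macrophages and smooth muscle, and its ratio was 0.49, 1.92 and 2.32 on replicates 1, 2 and 3 (mean 1.58 ± 0.96, adjusted p = 0.126). Calponin, Cnn1, an actin-binding protein of contractile smooth muscle, gave 0.06, 1.68 and 2.08 (mean 1.27 ± 1.07). Ccn5, a matricellular protein that restrains smooth muscle growth, gave 0.39, 1.42 and 1.92 (mean 1.24 ± 0.78). In Spp1, Cnn1 and Ccn5 replicate 1 was the lowest array. Col24a1, a minor fibrillar collagen, gave 0.80, 1.58 and 1.20 (mean 1.19 ± 0.39), but its other probe was at -0.12. Some members of this group rested on values held by many probes. The Emc4 ratio of 0.12 on replicate 3 was held by 102 probes, and the Pml ratio of 0.05 on that array by 63. RT1-CE5, Rab6b, Dus2, Alx1 and Ism1 completed the 15, with means from 1.07 for Ism1 to 1.31 for RT1-CE5. Other probes of these genes did not show such ratios, with means of 0.09 for RT1-CE5 and -0.30 for Dus2 and -0.11 for Ism1, and the lowest of the 3 Rab6b probes was at -0.45.

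Collagen genes were lower in old arteries. Of 33 probes for 18 collagen genes, 12 were lower and 0 higher at an unadjusted p below 0.05, where 3.05% of all probes were lower and 2.76% higher. On all 3 arrays 16 of the 33 were below 0 and 4 above it, against 13% and 11.4% of all probes. Col1a1, which encodes the alpha 1 chain of type I collagen, had log2 ratios of -1.57, -2.43 and -3.14 for the probe with the largest difference (mean -2.38 ± 0.79, 0.192 of the young level, adjusted p = 0.0173). A second Col1a1 probe gave -1.36, -1.14 and -1.45 (mean -1.32 ± 0.16, adjusted p = 0.0173), and the third was at -0.17 and shared its value with other probes. Its partner chain Col1a2 had a probe at -2.46, -2.59 and -0.84 (mean -1.97 ± 0.97, adjusted p = 0.0751) and another with a mean of -0.75 ± 0.21. Col3a1, the type III chain abundant in the vessel wall, gave -2.30, -2.00 and -1.43 (mean -1.91 ± 0.44, adjusted p = 0.0140). Chains of the minor fibrillar type V collagen followed at a smaller size, with all 3 Col5a2 probes between -0.69 and -0.66.

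Not every collagen was lower. Col4a1, of the basement membrane, and Col18a1 had probes with negative ratios on replicate 1 and positive ratios on replicates 2 and 3. Without replicates 1, 2 and 3 respectively, 13, 10 and 10 collagen probes were lower, where 3.44%, 1.66% and 4.98% of all probes were. These counts reuse the same arrays and include several probes of the same gene. Without replicate 1 there were also 3 collagen probes that were higher, where 5.86% of all probes were.

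**Figure D2:**
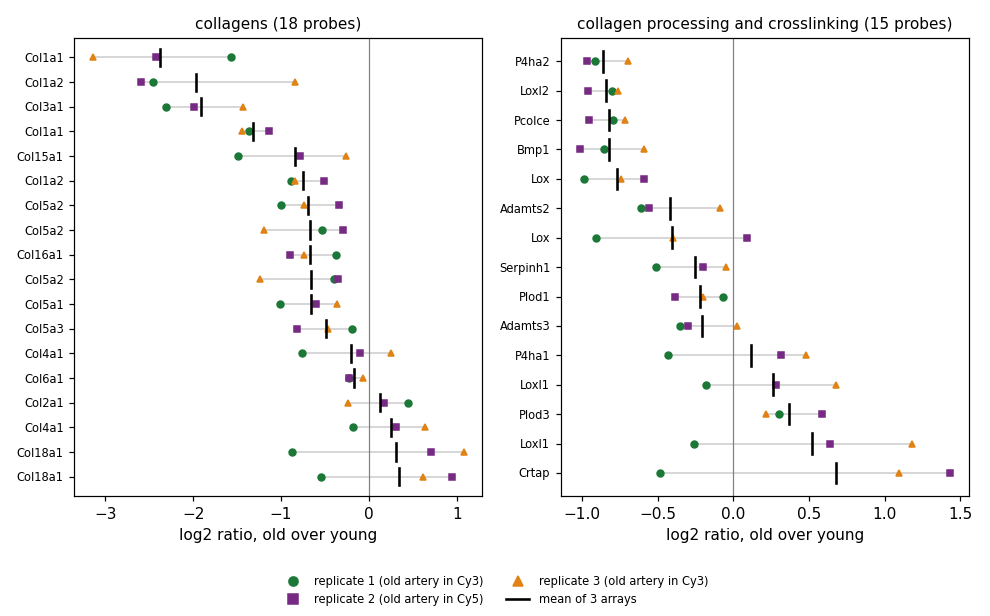
Log2 ratio (x axis, old over young) of each probe with a value of its own (y axis, gene) for collagens and for genes of collagen processing and crosslinking. Coloured points are the 3 arrays and black bars their mean. Col1a1, Col1a2 and Col3a1 were below 0 on every array, as were P4ha2, Loxl2, Pcolce and Bmp1, while Col18a1, Loxl1 and Crtap had replicate 1 on the other side of 0 from replicates 2 and 3.

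Genes that process and crosslink collagen were lower in part. At an unadjusted p below 0.05, 6 of 25 probes were lower and 0 higher, where 3.05% of all probes were lower and 2.76% higher. The median of the list was 0.04, since other members were above 0. Loxl2, a lysyl oxidase-like enzyme, was at -0.80, -0.96 and -0.76 (mean -0.84 ± 0.11, adjusted p = 0.0938). The prolyl hydroxylase gene P4ha2 was at -0.92, -0.97 and -0.70 (mean -0.86 ± 0.14). Pcolce and Bmp1 encode the enhancer and the protease that cleave the procollagen C-propeptide, and their means were -0.82 ± 0.12 and -0.82 ± 0.21. Lox, the founding lysyl oxidase, gave -0.77 ± 0.20 with 1 probe. All these arrays lay on the same side of 0. Without replicate 1, however, 7 probes of this list were higher and 5 lower, where 5.86% of all probes were higher and 3.44% lower.

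Among the elastic fibre and other matrix genes, 6 of 36 probes were higher and 7 lower, where 2.76% of all probes were higher and 3.05% lower. Without replicates 1, 2 and 3 the higher count was 15, 2 and 7, where 5.86%, 0.992% and 4.07% of all probes were higher. Sparc, a collagen-binding protein of growing tissue, was at -1.44, -0.94 and -1.06 (mean -1.15 ± 0.26, adjusted p = 0.0450). The large proteoglycan Vcan was at -0.69 ± 0.24, whereas Comp, a cartilage and vessel wall glycoprotein, was at 0.85 ± 0.46 and Efemp2, an elastic fibre assembly protein, at 0.51 ± 0.21. The elastin gene Eln was at -0.21, 0.12 and 0.48 (mean 0.13 ± 0.34), arrays on both sides of 0. Of the matrix proteases and their inhibitors, 5 of 27 probes were lower and 1 was higher, beside 3.05% and 2.76% of all probes. Mmp27 was at -1.63, -1.25 and -2.58 (mean -1.82 ± 0.68, adjusted p = 0.0395). Gelatinase A, Mmp2, was at -0.77, -0.75 and -0.78, a narrow spread (mean -0.76 ± 0.02, adjusted p = 0.108). The inhibitor Timp4 was the one that was higher, at 0.76 ± 0.46.

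The promoters of 4 genes with large differences in either direction are shown, Col1a2 and Scd on the lower side and Cxcl13 and Olr1 on the higher side. The choice also depended on which promoters were at hand, as none was for Col1a1, Col3a1, Fasn or Agt. Each run of 300 bases extends from upstream of the annotated start to just past it, read 5′ to 3′ on the gene's strand, from RefSeq on the GRCr8 build. Capitals mark a CCAAT or a TATAAA on either strand.
Col1a2, chr4:33518307-33518606, plus strand: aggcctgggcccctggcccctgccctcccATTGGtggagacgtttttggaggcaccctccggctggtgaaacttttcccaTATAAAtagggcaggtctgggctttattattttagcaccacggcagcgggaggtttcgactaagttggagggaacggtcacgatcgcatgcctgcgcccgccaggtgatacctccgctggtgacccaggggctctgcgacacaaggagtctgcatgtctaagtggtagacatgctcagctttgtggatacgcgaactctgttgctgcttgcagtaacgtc
Scd, chr1:253231682-253231981, minus strand: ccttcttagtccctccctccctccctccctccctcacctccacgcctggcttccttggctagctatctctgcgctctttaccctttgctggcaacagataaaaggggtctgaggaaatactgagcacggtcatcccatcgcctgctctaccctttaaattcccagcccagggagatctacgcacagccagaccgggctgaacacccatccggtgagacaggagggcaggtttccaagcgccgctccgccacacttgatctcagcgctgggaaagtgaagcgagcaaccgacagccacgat
Cxcl13, chr14:13917871-13918170, minus strand: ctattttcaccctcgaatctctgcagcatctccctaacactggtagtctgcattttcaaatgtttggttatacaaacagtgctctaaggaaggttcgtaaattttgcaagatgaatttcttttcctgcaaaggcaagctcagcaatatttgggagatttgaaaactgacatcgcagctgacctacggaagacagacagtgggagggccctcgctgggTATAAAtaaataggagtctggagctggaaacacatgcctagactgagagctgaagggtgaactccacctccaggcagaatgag
Olr1, chr4:164634498-164634797, minus strand: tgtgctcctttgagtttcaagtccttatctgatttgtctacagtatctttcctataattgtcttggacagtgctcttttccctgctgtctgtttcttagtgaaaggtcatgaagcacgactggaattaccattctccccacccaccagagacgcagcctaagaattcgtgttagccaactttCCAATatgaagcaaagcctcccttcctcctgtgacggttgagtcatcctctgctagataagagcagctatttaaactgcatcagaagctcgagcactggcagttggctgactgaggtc
The Col1a2 window held a CCAAT on the opposite strand, 221 bases before the annotated start, and a TATAAA 170 bases before it. Cxcl13 held a TATAAA whose first base lies 33 bases before the annotated start, and Olr1 a CCAAT 68 bases before it. Neither motif occurred in the Scd window. Of 33469 rat promoter windows of this length, 37.5% held a CCAAT and 14.2% a TATAAA, and these matches are a description of the letters only.

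The lowest mean among the probes past the study's thresholds was that of Scd, and both probes of Fasn, a further enzyme of fatty acid synthesis, were also lower. Scd, the stearoyl-CoA desaturase, had log2 ratios of -2.68, -3.58 and -2.00 (mean -2.75 ± 0.80, 0.148 of the young level, adjusted p = 0.0140). Fatty acid synthase, Fasn, gave -1.40, -2.19 and -1.84 with 1 probe (mean -1.81 ± 0.40, adjusted p = 0.0140) and -1.59, -2.21 and -1.40 with the other (mean -1.73 ± 0.42, adjusted p = 0.0173). Acetyl-CoA carboxylase, Acaca, which supplies the malonyl-CoA that Fasn uses, was at -1.14, -0.94 and -0.74 with 1 probe (mean -0.94 ± 0.20, adjusted p = 0.0751) and at -0.09 with the other. Every array was below 0 for all of these probes except the second Acaca probe. These 3 enzymes are abundant in fat and were taken from the list of adipocyte genes after their values were seen. In that list 5 of 27 probes were lower and 0 higher, where 3.05% of all probes were lower and 2.76% higher. Of the 5, 4 were the probes just given. The fifth was the rat adipocyte hormone resistin, Retn, at -0.06, -1.61 and -1.33. Of the 27 probes 6 were below 0 on all 3 arrays and 2 above it, and the median of the 14 with a value of their own was -0.27, -0.92 and 0.01 on replicates 1, 2 and 3. Dgat2, which forms triglyceride, had a probe at -0.63, -1.37 and 0.05, and the uncoupling protein gene Ucp1 was at -0.27, -0.16 and -0.13. Adiponectin, Adipoq, was at 0.16, -1.19 and 0.20, and the lipid droplet protein Plin1 at 0.40, 0.25 and 0.11. Leptin, Lep, was at 0.26, -0.09 and 0.08, and Fabp4 at 0.18, -0.47 and 0.71. Without replicate 1, 3 probes of the list were higher and 5 lower, where 5.86% of all probes were higher and 3.44% lower. The part of adipose tissue in the ratios was not tested.

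In the renin-angiotensin system, angiotensinogen, Agt, the precursor of angiotensin II, was lower in old arteries at -1.53, -1.86 and -2.05 (mean -1.81 ± 0.26, 0.285 of the young level, adjusted p = 0.0103). The angiotensin type 2 receptor, Agtr2, was at -1.36, -0.89 and -1.40 (mean -1.21 ± 0.28, adjusted p = 0.0403) with 1 probe. Its second probe had arrays on both sides of 0 and a mean of -0.20. For the type 1 receptor the Agtr1b probe was at 0.60 ± 0.34, and converting enzyme, Ace, was at 0.14 ± 0.26 and 0.06 ± 0.08 with its 2 probes. Of the 26 probes for angiotensin, endothelin and nitric oxide genes, 2 were lower and 2 higher, beside 3.05% and 2.76% of all probes. Without replicate 1, 5 were lower and 1 was higher, beside 3.44% and 5.86% of all probes.

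Among genes of early postnatal growth, Igf2bp2, an RNA-binding protein that controls translation of growth factor mRNA, was lower at -1.09, -2.22 and -2.13 (mean -1.81 ± 0.63, adjusted p = 0.0296). The imprinted genes Igf2, Ndn and H19 were at -0.63 ± 0.14, -0.84 ± 0.29 and -0.61 ± 0.40, with all 3 arrays below 0 for each. Of 32 probes on the list of postnatal growth and imprinted genes 7 were lower (21.9%) and 1, for the receptor Igf1r, was higher at 0.44. Among all probes 3.05% were lower and 2.76% higher. The list as a whole was not shifted, with a median of -3e-04, and 8 probes were below 0 and 4 above it on all 3 arrays. Pdgfrl, which resembles the ligand-binding part of a growth factor receptor, was among the least variable of the decreased genes, at -1.53, -1.41 and -1.55 (mean -1.50 ± 0.08, adjusted p = 0.0140). The phosphatase Alpl, used in mineralisation, was at -1.15, -1.52 and -1.37 (mean -1.35 ± 0.18, adjusted p = 0.0173). Of 40 probes for cell cycle genes 3 were lower and 0 higher, beside the 3.05% and 2.76% of all probes.

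Among chemokines, Ccl2 was lower in old arteries and Cxcl13 higher by the adjusted test among probes with a value of their own. Cxcl1 and Cxcl2 had low means that did not pass it. None of these chemokines passed when all 41010 probes were tested. Of 36 probes for inflammatory cytokines and chemokines 7 were lower and 2 higher, where 3.05% of all probes were lower and 2.76% higher. Without replicates 1, 2 and 3 the lower count was 9, 3 and 12, where 3.44%, 1.66% and 4.98% of all probes were lower. Ccl2, which attracts monocytes, was at -1.26, -1.79 and -0.98 (mean -1.34 ± 0.41, adjusted p = 0.0439). The neutrophil chemokine Cxcl1 was at -1.22, -3.60 and -1.36 (mean -2.06 ± 1.33, adjusted p = 0.127) and its relative Cxcl2 at -1.01, -3.11 and -0.84 (mean -1.65 ± 1.27). The dendritic cell surface protein Cd83 was at -1.05, -2.90 and -0.73 with 1 probe, and its other probe had a mean of -0.06. In Cxcl1, Cxcl2 and this Cd83 probe replicate 2 lay far below the other arrays. E-selectin, Sele, with which stimulated endothelium catches leukocytes, was at -1.60, -1.36 and -1.18 (mean -1.38 ± 0.21, adjusted p = 0.0173). The hyaluronan-binding Tnfaip6 and the protease inhibitor Tfpi2, were at -1.36 ± 0.37 and -1.39 ± 0.34 (adjusted p = 0.0363 and 0.0258). Of 28 probes for immediate early genes, which answer to handling and stress within minutes, 4 were lower and 0 higher, among them Atf3 at -0.30, -2.70 and -1.45 and Myc at -0.58, -1.28 and -0.73. Over all 3 arrays 3.05% of all probes were lower and 2.76% higher. Without replicates 1, 2 and 3 the lower count of immediate early genes was 9, 2 and 4, where 3.44%, 1.66% and 4.98% of all probes were lower. How much of these differences arose at tissue collection was not tested.

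Some red cell genes were lower in old arteries, and the part of blood left in the samples was not tested. Of 13 probes for erythroid genes 6 were lower and 0 higher, where 3.05% of all probes were lower and 2.76% higher. The median of the list was -0.24, and 4, 1 and 3 of the 13 probes were above 0 on replicates 1, 2 and 3. The members named here are among its lower ones. The anion exchanger of the red cell membrane, Slc4a1, was at -1.43, -1.70 and -1.17 (mean -1.43 ± 0.26, adjusted p = 0.0173), and beta globin, Hbb, at -1.18, -1.76 and -1.23 (mean -1.39 ± 0.32, adjusted p = 0.0246). Globin genes have near-identical copies, and a second beta globin probe, Hbb-b1, was at -1.94, -2.63 and 0.03. Carbonic anhydrase 2, Car2, which red cells share with other cells, was at -1.22 ± 0.32 (adjusted p = 0.0450).

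Smooth muscle genes were higher on 2 of the 3 arrays. Of 31 probes for contractile smooth muscle genes 6 were higher and 0 lower, where 2.76% of all probes were higher and 3.05% lower. The list's median log2 ratio was -0.06, 0.45 and 0.60 on replicates 1, 2 and 3, against medians of 0.00, -0.01 and 0.00 for all probes. Actg2, the gamma actin of smooth muscle, was at 0.79, 0.69 and 0.94 (mean 0.81 ± 0.13), and 1 probe for tropomyosin, Tpm2, at 0.69, 0.85 and 0.68. For these 2 probes the arrays were alike. Smooth muscle myosin, Myh11, by contrast was at -0.12, 1.23 and 1.15, and Tagln at 0.11, 0.80 and 1.07. Without replicate 1, 16 of the 31 probes were higher and 1 was lower, where 5.86% of all probes were higher and 3.44% lower. Without replicate 2 or without replicate 3, 2 of the 31 were higher (6.45%). The share of all probes that was higher was then 0.992% and 4.07%. Acta2 was not analysed here.

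Skeletal muscle genes separated the arrays in the same way but with the opposite sign. The 10 probes of the skeletal and heart muscle list with a value of their own had a median log2 ratio of 1.60 on replicate 1, -3.04 on replicate 2 and -1.94 on replicate 3. All 10 were above 0 on replicate 1, 1 was above 0 on replicate 2 and 0 on replicate 3. Fast troponin C, Tnnc2, was at 2.42, -3.63 and -2.90, the fast myosin light chain Myl11 at 2.12, -4.56 and -2.78, alpha actinin 3, Actn3, at 2.09, -3.58 and -2.56, and muscle creatine kinase, Ckm, at 2.02, -2.40 and -2.04. Tnnc2 on replicate 1 and Myl11 on replicate 2 were the highest and the lowest ratio of those arrays among the probes with a value of their own. The muscle genes Myh6, Myh7 and Tnnt2 had means of -0.38, -0.38 and 0.06, from probes with shared values. An iliac artery lies beside skeletal muscle, and these genes are not those of the arterial wall. The arrays with less skeletal muscle signal in the old sample were those with higher smooth muscle ratios, and the part of the former in the latter was not tested. Scd, Fasn, Agt, Col3a1 and the first 2 Col1a1 probes were below 0 on all 3 arrays. These probes are among those called for a small p over the same arrays, and the part of skeletal muscle in their ratios was not tested.

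**Figure D3:**
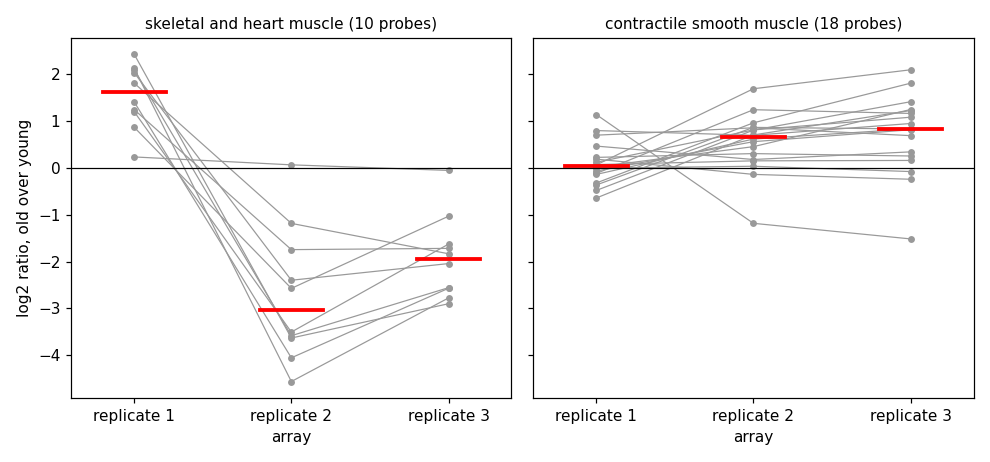
Log2 ratio (y axis, old over young) on each of the 3 arrays (x axis) for skeletal and heart muscle genes and for contractile smooth muscle genes with a value of their own. Grey lines join the values of a probe and red bars are the median of the list. Skeletal muscle medians ran from 1.60 on replicate 1 to -3.04 on replicate 2, and smooth muscle medians from 0.03 on replicate 1 to 0.82 on replicate 3.

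The regulatory light chain of smooth muscle myosin, Myl9, is the gene on which the study centred. One of its named probes had log2 ratios of 0.37, 0.65 and 0.80 on replicates 1, 2 and 3 (mean 0.60 ± 0.22, 1.52-fold, unadjusted p = 0.00792, adjusted p = 0.243) and the other -0.06, 0.91 and 1.11 (mean 0.65 ± 0.63, unadjusted p = 0.0390, adjusted p = 0.453). A further probe, which the study's supplementary list assigns to Myl9 and which has no symbol in the platform table, was at 0.09, 0.17 and 0.19 (mean 0.15 ± 0.05, unadjusted p = 0.330). None reached a 2-fold difference on the mean, and replicate 1 was the lowest array for each probe, as it was for Cnn1, Tagln and Myh11 but not for Actg2. Without replicate 1 the second probe had a mean of 1.01 and passed the study's thresholds. Integrin alpha 1, Itga1, a collagen receptor of smooth muscle, was at 0.45, 0.69 and 0.47 (mean 0.54 ± 0.13, adjusted p = 0.277). Vcam1, which binds leukocytes, was at 0.90, 0.61 and 0.43 (mean 0.65 ± 0.24, adjusted p = 0.212), and the NADPH oxidase Nox4 at 0.45, 0.55 and 0.68 (mean 0.56 ± 0.12, unadjusted p = 0.00754). The arrays were above 0 for these 3 genes, at less than 2-fold. For Vegfa the 2 probes were at -0.23 ± 0.05 and -0.12 ± 0.10, below 0 on all arrays and with unadjusted p of 0.145 and 0.436. The apoptosis inhibitor Bcl2 had 1 probe at -1.07, -0.09 and 0.47 and the other at 0.24, 0.29 and 0.33 (unadjusted p = 0.0847).

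The lists of antigen presentation and of protein folding held no probe past the study's thresholds, RT1-CE5 and RT1-CE16 not being among their members. Of 29 probes for antigen presentation 5 were higher and 0 lower, where 2.76% of all probes were higher and 3.05% lower. The higher count was 7 or 8 without any single array, where 5.86%, 0.992% and 4.07% of all probes were higher without replicates 1, 2 and 3. The class I gene RT1-A2 was at 0.92, 0.87 and 0.91 (mean 0.90 ± 0.03, adjusted p = 0.0678) and at 0.81, 0.81 and 0.65 with a second probe. The class II genes RT1-Da, RT1-Ba and RT1-Db1 were at 0.97 ± 0.64, 0.71 ± 0.43 and 0.85 ± 0.67, each from a probe with shared values. On replicate 1, this RT1-Db1 probe had the same ratio, 1.58, as the unrelated coactivator gene Ppargc1a and 5 further probes. RT1-Db1 also had probes with a value of their own on all 3 arrays, whose ratios are not given here, so its ratio is uncertain. Of 36 probes for heat shock and unfolded protein genes 9 were higher (25%) and 1 was lower. Without replicate 2, 1 was higher (2.78%), where 0.992% of all probes were higher. Hsph1, Cryab and Hsp90aa1 were at 0.60 ± 0.19, 0.57 ± 0.22 and 0.91 ± 0.67. In the list of oxidative stress genes 4 of 36 probes were higher, including extracellular superoxide dismutase, Sod3, at 0.64 ± 0.34, and 2 were lower, both metallothioneins, with Mt1 at -0.96 ± 0.46. None of the oxidative stress probes was higher without replicate 2, where 0.992% of all probes were.

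Markers of immune cells were read beside the 3.05% of all probes that were lower and the 2.76% that were higher. Of 26 probes for macrophages and monocytes 0 were higher and 1, Cd14, was lower at -0.35 ± 0.06. Of 21 probes for T, NK and B lymphocytes 0 were higher and 1 was lower, but 7 were lower without replicate 3. Of 24 probes for neutrophils and mast cells 2 were lower and 0 higher, and 6 were lower without replicate 3. Without that replicate 4.98% of all probes were lower. The lower ones over all 3 arrays were Camp, an antimicrobial peptide of neutrophils, at -1.20, -2.92 and -0.40 (mean -1.51 ± 1.29), and Ms4a2, a chain of the mast cell IgE receptor, at -0.61, -0.51 and -0.88 (mean -0.67 ± 0.19), both from probes with shared values. Endothelial genes were higher with 3 and lower with 1 of 27 probes, Kdr, a receptor for vascular endothelial growth factor, being lower at -0.55 ± 0.28. Without replicate 2 no endothelial probe was higher or lower, where 0.992% of all probes were higher and 1.66% lower. The list's median was 0.20, 0.02 and -0.22 on replicates 1, 2 and 3. The von Willebrand factor gene, Vwf, was at 1.42, -0.37 and -0.58 with its probe of own values. None of 49 probes for calcium and potassium channels or of 21 for the circadian clock reached an unadjusted p below 0.05 in limma. Over all 3 arrays 2.76% of all probes were higher and 3.05% lower, so few would be expected in lists of this size. Without replicate 1 the counts were 4 and 2 probes, all higher, where 5.86% of all probes were. Without replicate 3 a probe of each list was lower, where 4.98% of all probes were.

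The arteries taken 30 min after balloon injury allowed the same age comparison in other artery samples with the dyes mirrored, although whether they came from the same rats is not stated and whether both sides were injured is not settled. Of the 141 probes past the study's thresholds in healthy arteries 119 (84.4%) had a mean of the same sign at 30 min, against 56.5% of all probes. For the 35 probes that passed the adjusted test among those with a value of their own the count was 34 (97.1%). All 3 arrays at 30 min had that sign for 25 of them (71.4%), against 18% of all probes with a value of their own. The latter lay mostly near 0, with a median size of 0.13 in healthy arteries against 1.39 for the 35. Ubd was at 2.16, 2.32 and 1.92 on the 3 arrays at 30 min, Cxcl13 at 3.22, 2.16 and 1.95, and Agt at -2.18, -1.30 and -1.77. For Fasn the mean at 30 min was -1.69, and for the 2 Col1a1 probes it was -1.97 and -1.12. Scd stood apart from these at -1.77, 0.07 and -0.93, a mean of -0.87 against -2.75 in healthy arteries. The Myl9 probes had means of -0.21 and -0.04 at 30 min.

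**Figure D4:**
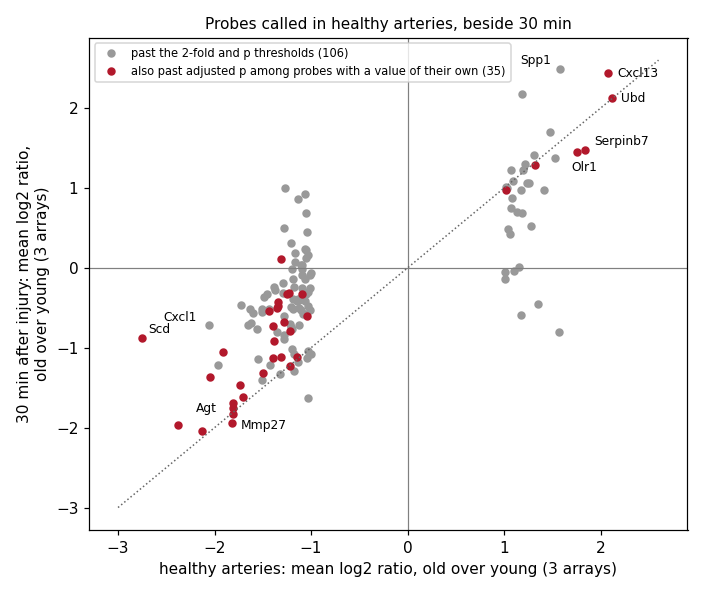
Mean log2 ratio, old over young, in healthy arteries (x axis) and 30 min after injury (y axis), 3 arrays each, for the probes past the study's thresholds in healthy arteries. Red points also passed the adjusted test among probes with a value of their own, and the dotted line marks equal ratios. Red points lay near that line with the exception of Scd, at -2.75 and -0.87, and a group of lower genes that were nearer to 0 at 30 min.

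The difference between the healthy and the 30 min comparison was tested with a term for the dye. No probe passed an adjusted p below 0.05 (0% called in limma), and 596 probes had an unadjusted p below 0.05. The difference for Scd was -2.32 (unadjusted p = 0.000239), and that for the first Myl9 probe had an unadjusted p of 0.0981. Cxcl1 at 30 min was at -2.24, -0.37 and 0.45 (mean -0.72, unadjusted p of the difference 0.0486 in limma). Cxcl2 was at -2.03, -0.004 and -0.10 (mean -0.71, unadjusted p 0.0313). Means nearer to 0 were general among the 141 probes past the study's thresholds, which were chosen for large ratios in healthy arteries. Their median size was 1.21 in healthy arteries and 0.60, in the same direction, at 30 min. Vcam1 was higher at 30 min, with a mean of 1.40 (unadjusted p of the difference 0.0290). None of these differences held after adjustment.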

How the data were processed

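Total RNA of iliac arteries was reverse transcribed, labelled with Cy3 and Cy5 and hybridised in pairs to Agilent Whole Rat Genome arrays. Per the methods, the authors scanned the arrays with a GenePix scanner, selected spots by quality, normalised each array by Lowess and called genes by analysis of variance with a 2-fold threshold and no correction. The deposited table holds log2 ratios for 41010 probes on 20 arrays, after 1 unnamed line was dropped. Which step gave the deposited log2 column, and which channel is the numerator, is not given in the sources used here. Spot intensities were not used here. Columns of other samples numbered 0.

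Symbols came from GEO's platform annotation (21394 probes with 1 symbol, 19616 with none, 1 symbol updated through RefSeq). Where Cy3 carried the old sample, the sign was turned. The mean of the 3 arrays was tested against 0 with limma 3.58.1 (lmFit and eBayes) in R 4.3.3, with Benjamini-Hochberg adjustment over all probes or, as an added setting, over the 10643 probes whose value no other probe held on any of the 3 arrays. An adjusted p printed beside a gene is from the latter set. The healthy and 30 min arrays were compared in 1 fit with a dye term. Errors are SD over 3 arrays, whose small number sets the precision. As nothing states that the samples came from separate rats, p-values measure the spread between these samples only. The fits were tested on simulated data. Alternatives covered the arrays fitted, array weights, a dye term, direction, scaling, an unmoderated one-sample t-test in place of the methods' analysis of variance, robust moderation, gene means and leaving out each replicate.

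Named genes were those of the study's text, the 15 highest and 15 lowest mean ratios among symbol probes past the study's thresholds with the same sign on 3 arrays, and up to 5 genes of each of 39 lists with the smallest p. Others were chosen after their values were seen. Members and lists were chosen with earlier results of these data known.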

Additional observations from a re-analysis of the deposited data

Results flagged for a closer look

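In all, 3 of the named probes had all arrays on 1 side of 0 in healthy arteries and all on the other side at another time. These differences were not tested at 7 days, and at 30 min they did not pass the adjusted test. Cxcl1, with a mean log2 ratio of -2.06 in healthy arteries, was above 0 on all 4 arrays 7 days after injury, with a mean of 1.50. A Vegfa probe was at -0.23 in healthy arteries and at 0.10 after 30 min (unadjusted p of the difference 0.174). The probe that the study's supplementary list gives to Myl9 was at 0.15 in healthy arteries and at -0.16 after 30 min (unadjusted p 0.169).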

How the results depend on the processing

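The absence of probes past the adjusted p among all 41010 held under 9 of the 12 planned settings. The others gave 3 probes (all 20 arrays in 1 fit: Scd, Agt and Pdgfrl, all lower), 369 (the same with array weights), and 0 to 90 when a replicate was left out, the 90 coming without replicate 1. Limited to probes with a value of their own, the count was 35. The 141 probes past the study's thresholds became 477 with array weights, 42 with the ratios as deposited, 56 with the unmoderated t-test (0 after Benjamini-Hochberg), 51 of 16421 genes with gene means, 90 among probes with a value of their own, and 254 to 455 when a replicate was left out. Repeated on all 10643 filtered probes, the settings gave in place of 35 a count of 12 in the fit of all 20 arrays (8 of them among the 35), 0 with the ratios as deposited, 0 with the unmoderated t-test (all of the 35 at an unadjusted p below 0.05) and 0 to 501 when a replicate was left out. The causes were not tested. Among single genes a Bcl2 probe changed sign without replicate 1 (0.19, and -0.58 to 0.19 when a replicate was left out). Of 210 settings for the 30 highest and lowest genes, 34 took the gene below the study's thresholds, 16 of them the t-test. None turned the sign, but these genes had been chosen for the same sign on all 3 arrays. Only the fit of all 20 arrays could have turned it. The difference between healthy and 30 min arrays gave 0 probes under every alternative, also with the replicate number as a block (0 past the adjusted p, 1141 at an unadjusted p below 0.05); samples of the same number did not pair throughout (correlation of deviations -0.31, 0.11 and 0.13).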
